A study of Homo sapiens with 6 samples.

Results

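CYR61, CTGF, NOV, WISP1 and WISP2, 5 genes of the CCN family of matricellular proteins, and ANKRD1, AMOTL2, AXL, YAP1 and WWTR1, which belong to the YAP and TAZ pathway or are known targets of it, were followed in human ovarian carcinoma cells. Members were the non-control probes whose gene name in the scanner files is one of these 10 symbols, which gave 20 probes among 41000 on the array, and 10 of 29123 gene names. All 10 symbols were found in RefSeq, where the CCN genes are now called CCN1 (CYR61), CCN2 (CTGF), CCN3 (NOV), CCN4 (WISP1) and CCN5 (WISP2).

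CCN proteins are secreted into the extracellular matrix, where they bind integrins, heparan sulphate proteoglycans and growth factors, and act on adhesion, migration and matrix turnover. CYR61 and CTGF are textbook targets of YAP and of its paralogue TAZ, the product of WWTR1. These coactivators have no DNA-binding domain of their own and reach promoters through TEAD factors, while the Hippo kinases phosphorylate them and hold them out of the nucleus. Their nuclear entry also depends on cell spreading and the actin cytoskeleton. Hic-5, encoded by TGFB1I1, is a focal adhesion adaptor related to paxillin.

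The study asked what loss or gain of Hic-5 does to gene expression in ovarian cancer cells. SKOV3 is an established ovarian adenocarcinoma line, and 2 stable SKOV3 clones, sh-S1 and sh-S2, carried lentiviral pLKO.1-puro shRNA vectors against Hic-5 and were selected with puromycin. Their Ctrl was a SKOV3 clone with the same vector encoding a scramble sequence. A2780s is a second ovarian carcinoma line, in which the stable neomycin-selected clone pCMV-Hic-5 expressed Hic-5 from a pCMV6 plasmid, and its Ctrl carried the empty pCMV6 vector. Each clone was hybridized against the Ctrl of its own line on 2 two-colour arrays with the dyes swapped, so that 4 arrays covered SKOV3 and 2 covered A2780s. The dye swap repeats the same RNA pair and counts as 1 replicate. SKOV3 therefore had n = 2 clones against a single Ctrl RNA, whose own spread does not enter any test, and A2780s had 1 clone and no test. The SKOV3 arrays shared 1 slide and the A2780s arrays a different one, which means that an effect of slide and one of cell line cannot be told apart. Every clone is a selected line of its own, so that clone and construct cannot be told apart where 1 clone stands for a construct.

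Ratios are log2 of clone over Ctrl, and a value of -1 means a 2-fold lower signal in the clone. In SKOV3, a probe was called when limma's Benjamini-Hochberg adjusted p was at most 0.05 and the mean ratio was at least 2-fold. In A2780s, the fold rule was a mean of at least 1.5-fold with the same direction on both arrays. Median signal above background was 373 to 530 in Cy3 and only 9.52 to 25.5 in Cy5 on the SKOV3 arrays, against 325 to 369 in Cy3 and 441 to 568 in Cy5 on the A2780s arrays, so ratios of dim probes in SKOV3 are compressed by the offset of 50 added to both channels. Over all tested probes, the dye-swapped ratios correlated with r = 0.61 for sh-S1, 0.61 for sh-S2 and 0.49 for pCMV-Hic-5, a description across probes that share arrays.

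The labels state that clones with inhibited Hic-5 were checked by quantitative RT-PCR and Western blot, but on these arrays the targeted gene was not lower in them. TGFB1I1 had log2 ratios of -0.16 and 0.12 on the arrays of sh-S1 and of -0.12 and 0.28 on those of sh-S2. The mean was 0.03 ± 0.07 (SD, n = 2 clones), with an adjusted p of 0.855 by limma. Its probe lies in coding sequence at chr16:31488267-31488326 (hg19, plus strand), and its signal cleared the background in each RNA and both dyes. It was dim in Cy5 on the SKOV3 arrays, and in Cy3 its mean intensity before correction was 758 and 648 in Ctrl against 701 in sh-S1 and 508 in sh-S2, each on a different array. Its log2 channel level was 7.78 to 8.55 in SKOV3 Ctrl and 11.85 to 13.73 in A2780s Ctrl. The lines were on different slides, so these levels are a description without a test. The wide range in A2780s Ctrl is that of 2 arrays with the same RNA. In what follows, sh-S1 and sh-S2 stand for the RNAs labelled so, and no direction given for them is a direction for loss of Hic-5. In pCMV-Hic-5, TGFB1I1 was 10.0-fold higher than in Ctrl, with log2 ratios of 4.05 and 2.60 and no saturation flag on either array.

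Cell type markers also differed between the SKOV3 RNAs. Of 9 tested epithelial and ovarian carcinoma markers, 6 were lower in sh-S1 and sh-S2 and 0 were higher, where 4.16% of all tested probes were called lower and 2.98% higher. MUC1 (-0.005), MUC16 (0.06) and WT1 (-0.02) were not called. The transcription factor PAX8 fell by 3.58 ± 0.07 on the log2 scale (SD, n = 2 clones), while the keratins KRT18 and KRT19 had mean log2 ratios of -3.53 ± 0.10 and -2.55 ± 0.02 and the receptor ERBB2, known to be amplified in SKOV3, had -2.28 ± 0.18. Among 6 tested fibroblast markers, the collagen COL3A1 was higher by 3.65 ± 0.33 and the surface protein THY1 by 1.45 ± 0.11. COL1A1 (-0.14), COL1A2 (0.16), DCN (0.07) and PDGFRA (0.50) were not called. Other probes of COL3A1 and KRT18 read as little as 1.12 and -2.14. The summed level of the 11 epithelial markers was 15.92 to 16.40 (log2 of the sum) in SKOV3 Ctrl and 13.16 to 13.72 in the labelled clones, and that of the 7 fibroblast markers was 11.07 to 11.63 and 13.06 to 14.11. Such a sum weighs the brightest genes most and is no sign that all of a list moved. EPCAM and CDH1, defining epithelial markers, did not pass the filter on dim probes in SKOV3. The 4 tested leukocyte markers and the 1 tested endothelial marker gave no call. The part of these differences in the results for the members was not tested. In A2780s, the epithelial list summed to 11.88 to 12.30 in Ctrl and 12.004 to 12.18 in pCMV-Hic-5, and the fibroblast list to 13.43 to 13.65 and 13.35 to 13.39. Of 7 tested epithelial markers, 1 was higher there by the 1.5-fold rule, KRT18 (log2 ratio 0.59), and 0 were lower. ERBB2 (-0.49), PAX8 (-0.18), KRT8 (0.10) and EPCAM (0.04) did not pass it. Of 6 tested fibroblast markers, 1 was lower, PDGFRA (-0.83), and 0 were higher. Over all tested probes, 3.26% were higher and 1.32% lower, so these are single genes and no result for either list.

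Probe and promoter sequences show where the measurements sit. Each array feature is a 60-base oligonucleotide. The following probes of CYR61, YAP1, WWTR1 and TGFB1I1 fall in coding sequence and are shown because the results for CYR61 and WWTR1 turn on which probe is read. They were taken from the scanner files and have hg19 positions chr1:86048444-86048503 (plus strand), chr11:102100584-102100643 (plus strand), chr3:149238593-149238652 (minus strand) and chr16:31488267-31488326 (plus strand).
CYR61 probe A_24_P370946: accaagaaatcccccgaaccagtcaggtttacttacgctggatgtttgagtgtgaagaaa
YAP1 probe A_23_P104762: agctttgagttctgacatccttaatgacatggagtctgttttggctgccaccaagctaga
WWTR1 probe A_23_P29769: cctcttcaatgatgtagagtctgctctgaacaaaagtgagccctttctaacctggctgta
TGFB1I1 probe A_23_P141055: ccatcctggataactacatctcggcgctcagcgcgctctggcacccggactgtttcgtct

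RefSeq promoters (GRCh38.p14) were given for 6 members: CTGF, ANKRD1, AMOTL2, AXL, YAP1 and WWTR1. The 250 bases before the transcript start are shown for CTGF, ANKRD1 and the second of the AMOTL2 entries, at chr6:131951373-131951622, chr10:90921088-90921337 and chr3:134374448-134374697, all on the minus strand. Capitals mark the core of the TEAD motif, GGAATG, or its reverse complement.
CTGF promoter: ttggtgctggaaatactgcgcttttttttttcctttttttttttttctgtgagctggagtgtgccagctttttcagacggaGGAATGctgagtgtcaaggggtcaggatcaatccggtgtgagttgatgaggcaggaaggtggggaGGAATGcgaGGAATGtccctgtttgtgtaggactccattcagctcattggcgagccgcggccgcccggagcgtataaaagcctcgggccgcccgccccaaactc
ANKRD1 promoter: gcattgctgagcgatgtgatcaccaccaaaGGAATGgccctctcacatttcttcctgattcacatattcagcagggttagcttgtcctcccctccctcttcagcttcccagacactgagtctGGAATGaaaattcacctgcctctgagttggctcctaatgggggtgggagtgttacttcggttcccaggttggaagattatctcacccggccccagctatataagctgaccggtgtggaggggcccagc
AMOTL2 promoter: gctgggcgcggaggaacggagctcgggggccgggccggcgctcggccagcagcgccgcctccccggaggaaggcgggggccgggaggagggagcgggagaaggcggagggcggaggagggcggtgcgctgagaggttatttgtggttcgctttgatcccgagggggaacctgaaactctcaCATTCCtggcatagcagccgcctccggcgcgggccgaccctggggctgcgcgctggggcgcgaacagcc

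GGAATG stood 3 times before the start of CTGF, beginning 169, 104 and 95 bases upstream, 2 times before that of ANKRD1, at 220 and 128 bases, and 1 time before the second start of AMOTL2, on the other strand. On either strand, 11.9% of the 35116 RefSeq promoters held it, 0.94% held it 2 or more times and 0.0826% held it 3 or more times in the same window. YAP1 and the second entry of AXL held it 1 time each, and neither entry of WWTR1 held it. The AP-1 motif TGANTCA, present in 6.57% of promoters, occurred 1 time, in ANKRD1. The SMAD core CAGAC, present in 38.0%, occurred in CTGF, ANKRD1, AXL and the first entry of AMOTL2, and the CArG box, present in 1.16%, in none of the 6. These are matches of letters, searched on both strands, and no binding was measured here.

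Of the 20 member probes, 18 passed the filter on dim probes in SKOV3. There, 6 probes from 5 genes were called lower and 0 higher, where 4.16% of all 24958 tested probes were called lower and 2.98% higher. The called genes were CYR61, NOV, WISP2, AMOTL2 and AXL. Of the 18 probes, 4 passed the filter through Ctrl alone, among them the called probes of NOV and WISP2 (A_23_P82929 and A_23_P102611), so their calls are descriptions. With both RNAs required above background on every array, 4 probes were called lower. At an unadjusted limma p under 0.05, 1 member probe lay above 0 by its mean, YAP1 A_24_P273679, though only on the arrays with the clone in Cy3. A further 6 probes, of CTGF, CYR61 and WWTR1, had an adjusted p under 0.05 but changed less than 2-fold. The shares of all tested probes that pass either p threshold alone are not given here, so both counts are descriptions. The median log2 ratio of the 18 probes was -0.65, against 0.00 over all tested probes. It includes the 4 probes that passed through Ctrl alone and counts probes, not genes, with 5 from WWTR1, so it is a description. In A2780s, 15 member probes passed the filter. 5 of them, from CYR61, CTGF and AMOTL2, were lower in pCMV-Hic-5 by the fold rule and 0 were higher, where 1.32% of all 30531 probes were lower and 3.26% higher. Their median was -0.21, against -0.01 over all probes. These calls compare clones with Ctrl RNA, and in bulk RNA fewer cells of a type and less RNA per cell cannot be told apart.

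**Figure D1:**
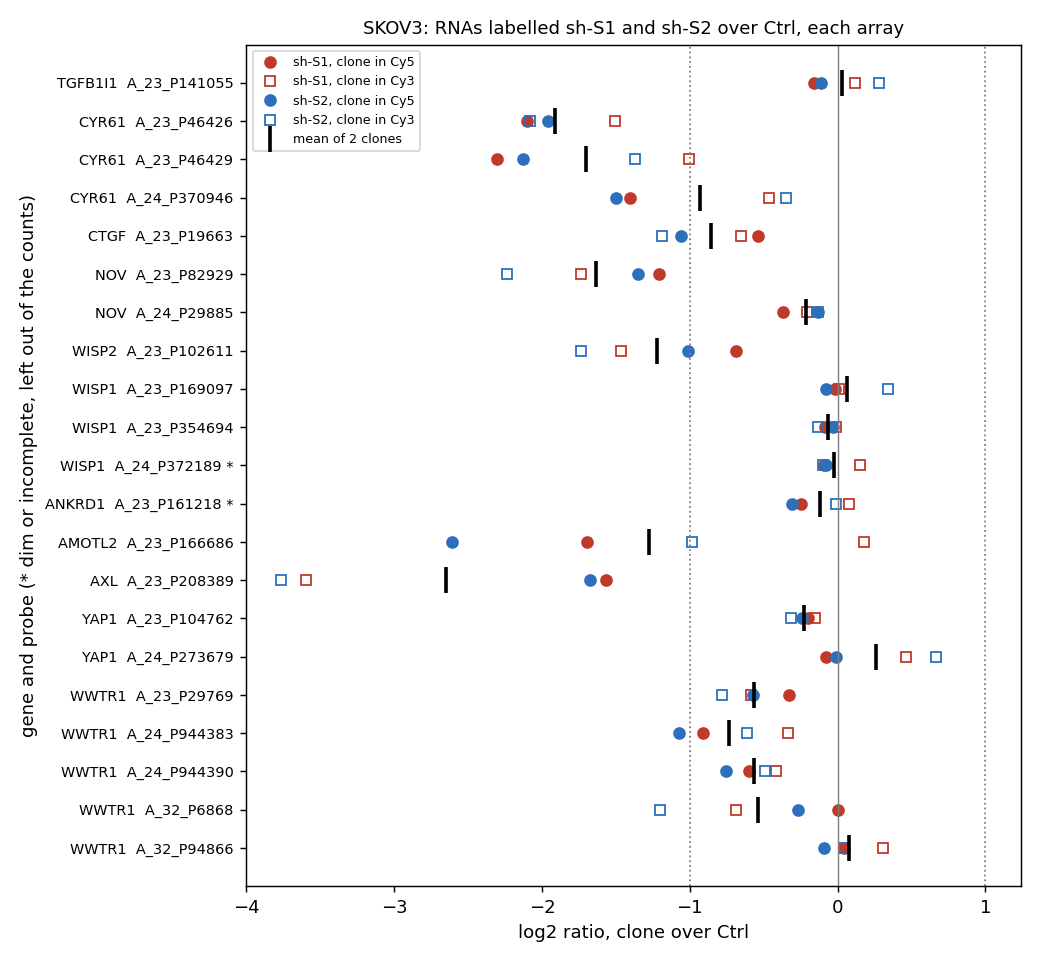
Log2 ratio of clone over Ctrl (x axis) for TGFB1I1 and each member probe (y axis) on each of the 4 SKOV3 arrays, with filled circles for the clone in Cy5, open squares for the clone in Cy3, bars for the mean of 2 clones and dotted lines at 2-fold. AXL lies furthest below 0 by its mean, the CYR61, NOV A_23_P82929 and WISP2 probes lie below 0 on every array, and TGFB1I1 scatters around 0.

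CYR61 was lower in all 3 modified RNAs by each of its 3 probes. In SKOV3, the brightest probe, A_23_P46429 (chr1:86048953-86049012, hg19), had log2 ratios of -2.31 and -1.002 in sh-S1 and of -2.13 and -1.37 in sh-S2, in each case with the clone in Cy5 first. The mean was -1.70 ± 0.07 (SD, n = 2 clones), or 3.25-fold lower, with an adjusted p of 4.16e-05 by limma. All 4 arrays were below 0, and the array with the clone in Cy5 was lower in either clone.

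Probe A_23_P46426, which starts 218 bases further downstream, gave -2.10 and -1.50 in sh-S1 and -1.96 and -2.08 in sh-S2, a mean of -1.91 ± 0.15. The third probe, A_24_P370946, whose coding sequence is printed above, gave -1.41, -0.47, -1.50 and -0.35 on the same arrays. Its mean of -0.93 ± 0.01 was significant in limma (adjusted p of 0.000505) but 1.91-fold, short of the 2-fold rule. The Cy5-clone array minus the Cy3-clone array was -0.94 in sh-S1 and -1.16 in sh-S2, so the size is less certain than this SD. The probes thus shared the direction and differed in size, the most 5′ of them giving the smallest ratio in SKOV3.

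In A2780s, the same probes gave -1.46 and -1.52 (A_23_P46429), -1.99 and -1.72 (A_23_P46426) and -1.11 and -1.41 (A_24_P370946). CYR61 was 2.81-fold, 3.62-fold and 2.40-fold lower by these probes in pCMV-Hic-5, and every ratio passed 1.5-fold on its own array. CYR61 was thus lower both in the clone with high TGFB1I1 and in the labelled knockdown clones, in which TGFB1I1 was not called.

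CTGF, measured by a single probe at chr6:132270130-132270189 (hg19, minus strand), was lower on all 6 arrays. In SKOV3 its ratios were -0.54 and -0.65 in sh-S1 and -1.06 and -1.19 in sh-S2. Both dye orientations of a clone lay close together, with gaps of 0.11 and 0.13. The mean of -0.86 ± 0.37 (SD, n = 2 clones) had an adjusted p of 0.00387 by limma and was 1.81-fold, so CTGF was not called. The value depends on the processing. With median centring in place of loess it was -1.07, past 2-fold with an adjusted p of 0.000459 by limma. With an offset of 10 in place of 50 it was -1.25, and with the processed signals of Feature Extraction -1.64, both past 2-fold with adjusted p of 5.79e-05 and 0.011. The 2 clones differed by 0.52, which could not be tested with 1 RNA pair a clone. In pCMV-Hic-5 the ratios were -1.31 and -1.22, a 2.40-fold lower level.

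NOV and WISP2, matricellular proteins of the same family, were called lower in the SKOV3 clones, NOV by 1 of its 2 probes. NOV probe A_23_P82929 gave ratios of -1.21 and -1.74 in sh-S1 and -1.35 and -2.24 in sh-S2. The mean was -1.63 ± 0.23, given as a description because the probe passed the filter through Ctrl alone. The probe cleared the background in Ctrl on 4 of 4 arrays and in the clones on the 2 arrays that had them in Cy3, so that the Cy5 clone signals are no measured levels. With the processed signals the ratio was -4.53, so its size is uncertain.

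The second NOV probe, A_24_P29885, lies 1136 bases upstream in the genome and disagreed, with ratios of -0.37, -0.21, -0.13 and -0.13. Its mean of -0.21 ± 0.11 did not pass the test (adjusted p of 0.158 by limma). Its level in SKOV3 Ctrl was 7.4 to 8.22 (log2 channel level), nearer the background than the 8.14 to 10.21 of the first probe, although levels of different probes are not on 1 scale. The processed signals gave -1.25 for it.

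WISP2, which lacks the C-terminal cystine knot domain of the other family members, had ratios of -0.69 and -1.46 in sh-S1 and of -1.01 and -1.73 in sh-S2. The mean was -1.22 ± 0.21, again a description, since WISP2 too passed through Ctrl alone. As for NOV, the clone RNA was well above background only in Cy3, and the Cy5 orientation taken by itself gave -0.85, under 2-fold. In A2780s, NOV A_23_P82929 was not well above background in pCMV-Hic-5 on either array, NOV A_24_P29885 had ratios of -0.07 and 0.29, and WISP2 had ratios of -0.06 and 0.01.

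WISP1 and ANKRD1 were dim. WISP1 A_23_P354694 was well above background in SKOV3 Ctrl on 4 of 4 arrays and in pCMV-Hic-5 on 2 of 2, but in each of sh-S1 and sh-S2 on 1 of 2. The WISP1 probes A_23_P169097 and A_23_P354694 had mean SKOV3 ratios of 0.06 ± 0.09 and -0.07 ± 0.02, neither called, and A_24_P372189 did not pass the filter. In A2780s, only A_23_P354694 passed it, with ratios of 0.59 and 0.00 that did not add up to 1.5-fold. The ANKRD1 probe, for a cardiac ankyrin repeat protein widely used as a YAP readout, stood well above background in SKOV3 Ctrl on 2 of 4 arrays, 1 of 2 in either labelled clone, 1 of 2 in A2780s Ctrl and 0 of 2 in pCMV-Hic-5, and passed neither filter. WISP3, the remaining CCN gene, likewise passed neither. For ANKRD1 and WISP3 a difference was not detectable at this signal.

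AMOTL2, an angiomotin family scaffold that binds YAP and is also one of its targets, was called lower in SKOV3 but with the widest spread among members. Its ratios were -1.70 and 0.18 in sh-S1 and -2.61 and -0.98 in sh-S2. Only the sh-S1 array with the clone in Cy3 lay above 0, and the Cy5-clone array minus the Cy3-clone array was -1.87 for sh-S1 and -1.62 for sh-S2. The mean of -1.28 ± 0.73 (SD, n = 2 clones) had an adjusted p of 0.00549 by limma. The value was -1.80 in sh-S2 alone and -0.76 in sh-S1 alone, the latter under 2-fold, and -0.40 (adjusted p of 0.253 by limma) over the arrays with the clones in Cy3, so the call rests on sh-S2 and on the Cy5 orientation. In pCMV-Hic-5 both arrays were below 0, at -1.21 and -0.67, and AMOTL2 was 1.92-fold lower. Its probe, at chr3:134074742-134074801 (hg19, minus strand), was well above background in every RNA.

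AXL, a receptor tyrosine kinase for GAS6 and a YAP target linked to invasion, had the lowest mean ratio of the members in SKOV3 as processed here, though NOV A_23_P82929 was lower with the processed signals and with the offset of 10, and so were CYR61 and AMOTL2 where the clones were labelled with Cy5. It had ratios of -1.57 and -3.59 in sh-S1 and of -1.68 and -3.76 in sh-S2. The mean of -2.65 ± 0.10 was 6.28-fold lower (adjusted p of 7.86e-06 by limma). The clones differed by 0.14, while the dye orientations of each clone differed by 2.02 and 2.09 on the log2 scale, so the size is less certain than the SD between clones. In pCMV-Hic-5, AXL had ratios of -0.01 and -0.11 and did not pass the fold rule. Its probe (chr19:41767395-41767454, hg19, plus strand) was well above background in all RNAs.

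**Figure D2:**
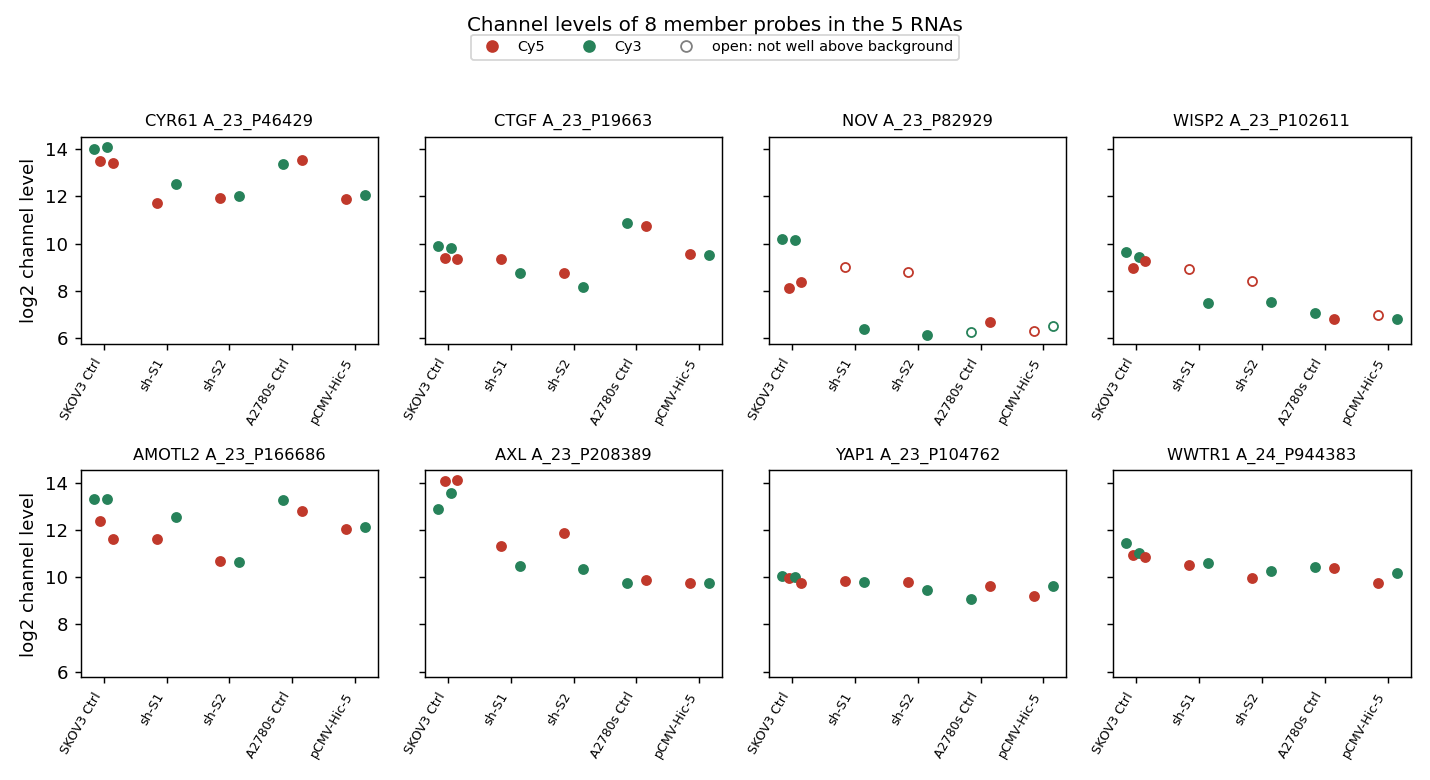
Log2 channel level (y axis, after within-array loess and quantile scaling of mean intensity between arrays) of 8 member probes in the 5 RNAs (x axis), 1 point an array, coloured by dye and open where not well above background. AXL stood at 12.90 to 14.12 in SKOV3 Ctrl and at 9.75 to 9.86 in both A2780s RNAs, while YAP1 spanned 9.08 to 10.03 over all RNAs.

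Levels set these ratios in context, as a description without a test, since SKOV3 and A2780s were on different slides. AXL ranged from 12.90 to 14.12 (log2 channel level) in SKOV3 Ctrl, from 10.35 to 11.88 in the labelled clones and from 9.75 to 9.86 in the A2780s RNAs, and the 3 sets of arrays did not overlap. CYR61 A_23_P46429 was at 13.39 to 14.07 in SKOV3 Ctrl and 13.35 to 13.56 in A2780s Ctrl, which overlap. It was at 11.71 to 12.51 in the labelled clones and 11.88 to 12.04 in pCMV-Hic-5, below either Ctrl. CTGF was at 10.74 to 10.87 in A2780s Ctrl, above the 9.36 to 9.88 of SKOV3 Ctrl. At 9.53 to 9.57, pCMV-Hic-5 was within the range of SKOV3 Ctrl. NOV A_23_P82929 and WISP2 stood at 8.14 to 10.21 and 8.96 to 9.63 in SKOV3 Ctrl and at 6.26 to 6.69 and 6.81 to 7.05 in A2780s Ctrl.

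YAP1 and WWTR1, which encode the coactivators themselves, gave no call in either line as processed here. The YAP1 probe in coding sequence, A_23_P104762, gave -0.20 and -0.15 in sh-S1 and -0.24 and -0.32 in sh-S2. This mean of -0.23 ± 0.07 was not called (adjusted p of 0.122 by limma). A second YAP1 probe, A_24_P273679 (chr11:102102932-102102991, hg19), gave -0.08 and 0.46 in sh-S1 and -0.01 and 0.67 in sh-S2. Its mean had the opposite sign, 0.26 ± 0.09, and was not called either, and only the arrays with the clone in Cy3 lay above 0. In A2780s, A_23_P104762 gave 0.11 and 0.02, and A_24_P273679 carried an outlier flag on 1 array and was left out.

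WWTR1 had 5 probes, of which none reached 2-fold. 4 of them, within 2336 bases at chr3:149236317-149238652 (hg19), had mean ratios of -0.57 ± 0.15, -0.73 ± 0.15, -0.56 ± 0.08 and -0.54 ± 0.28 in SKOV3, with adjusted p between 0.00213 and 0.0148 by limma. For A_24_P944383, the brightest, the arrays read -0.91 and -0.34 in sh-S1 and -1.07 and -0.61 in sh-S2, 1.66-fold lower. The other probe, A_32_P94866, is assigned by the files to transcript ENST00000474080, 180860 bases away, and had a mean of 0.08 ± 0.14 (adjusted p of 0.647 by limma). The 4 probes of the RefSeq transcript thus had means lower by less than 2-fold in this processing, while the distant probe did not pass the test. A_32_P6868 read 0.00 on the sh-S1 array with the clone in Cy5. Its mean was -0.13 over the Cy5-clone arrays and -0.94 over the Cy3-clone arrays (adjusted p of 0.438 and 0.00358 by limma). With the processed signals, A_24_P944390 read -1.37 and A_32_P6868 -1.19, both called lower (adjusted p of 0.00564 and 0.00352 by limma). In pCMV-Hic-5 the 5 probes had means between -0.46 and 0.14 and none passed the fold rule, although A_24_P944383 and A_24_P944390 both read -0.70 on the single array whose Cy5 channel held pCMV-Hic-5.

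**Figure D3:**
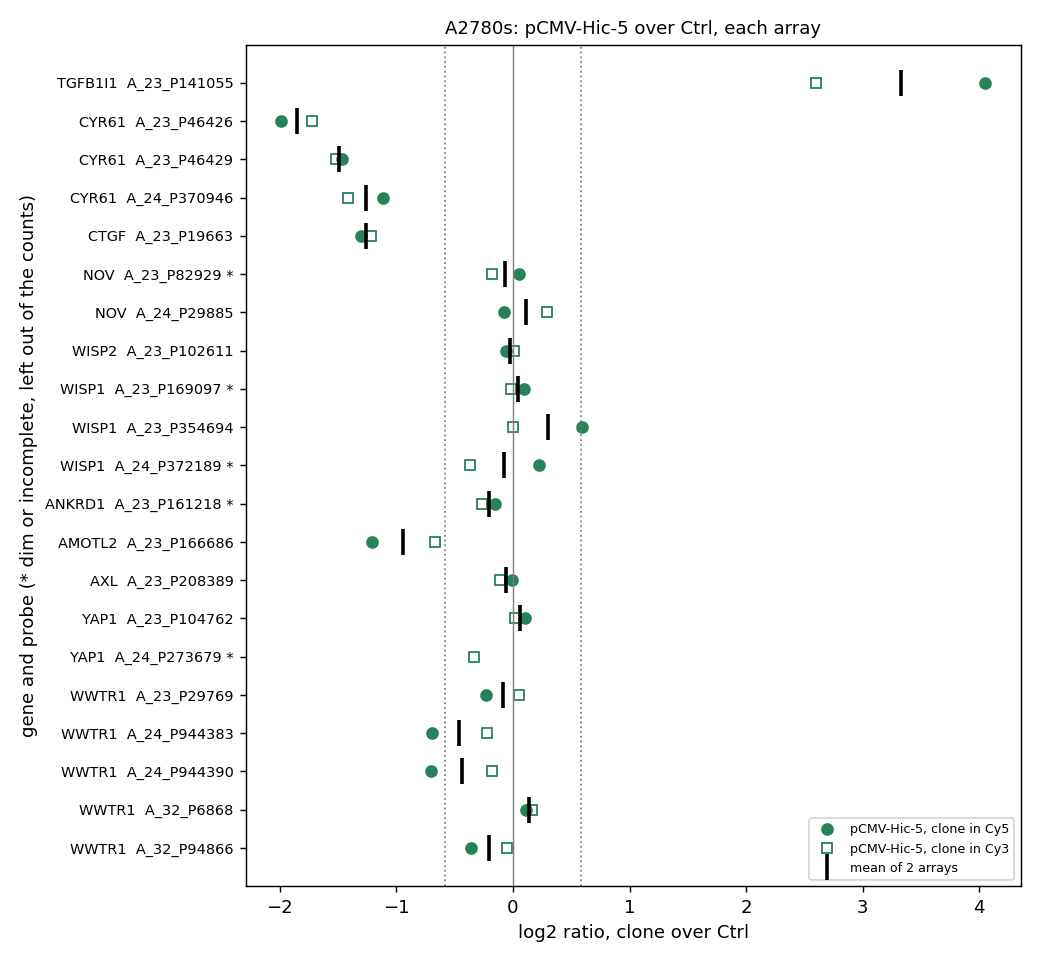
Log2 ratio of pCMV-Hic-5 over Ctrl (x axis) for TGFB1I1 and each member probe (y axis) on the 2 dye-swapped arrays, with bars for their mean and dotted lines at 1.5-fold. TGFB1I1 lies at 4.05 and 2.60, and the 3 CYR61 probes, CTGF and AMOTL2 lie below the lower line on both arrays.

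**Figure D4:**
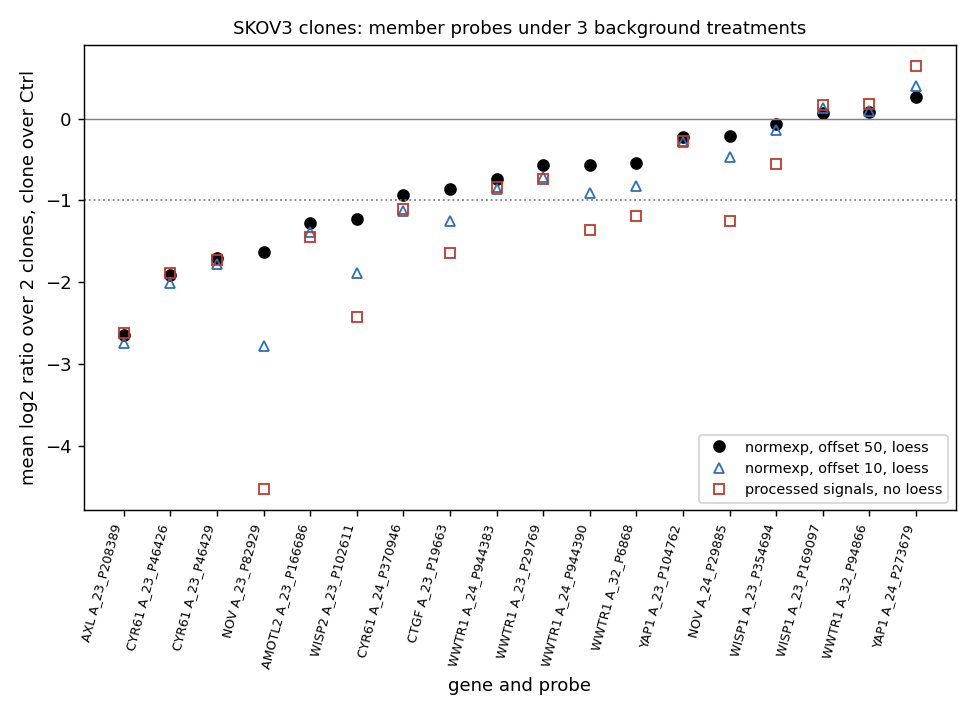
Mean log2 ratio over the 2 SKOV3 clones (y axis) of the 18 member probes that passed the filter (x axis), with 3 treatments of the background, and a dotted line at 2-fold lower. AXL and the brighter CYR61 probes hardly move, whereas NOV A_23_P82929 goes from -1.63 to -4.53 and CTGF from -0.86 to -1.64.

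The size of the SKOV3 ratios depended on the processing, as the plot of 3 treatments shows. The processed signals were used without loess, so that background and normalization differed together. With the offset of 50 kept and median centring in place of loess, NOV A_23_P82929 was -2.56 in place of -1.63. For bright probes the choice mattered little: AXL was -2.65, -2.75 and -2.62 with offset 50, offset 10 and the processed signals, and CYR61 A_23_P46429 was -1.70, -1.77 and -1.72. The dimmer probes spread apart, with WISP2 at -1.22, -1.89 and -2.43. All 3 treatments gave 0 members called higher, and 6, 8 and 11 probes called lower. Calls over all tested probes rose as well, with 1038, 1650 and 2356 lower and 743, 1182 and 1971 higher.

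Other genes of the pathway were read by their brightest probe that passed the filter, while the shares beside them count every tested probe. The lists were chosen with earlier results of these data known, so their counts are descriptions. Among 27 further YAP and TAZ target genes tested in SKOV3, 13 were lower and 0 higher, with a median of -0.72, where 4.16% of all tested probes were called lower. 3 of the 13 passed the filter through Ctrl alone. Over all pathway lists, the lower calls went from 19 to 16 with both RNAs required above background. They went to 17 with the mean over probes of a gene. Those with the lowest ratios were EDN1, the precursor of the vasoconstrictor endothelin, at -3.90 ± 0.05, DLC1 at -3.51 ± 0.16, the matrix glycoprotein THBS1 at -3.04 ± 0.13, and tissue factor, F3, at -2.78 ± 0.15 (SD, n = 2 clones). Other probes of THBS1 and DLC1 gave ratios up to -1.16 and -1.39. In A2780s, 24 of the list were measured, and the growth factor TGFB2 (-0.85) and the activin subunit INHBA (-0.61) were lower and the phosphatase DUSP1 higher (1.55). Over all tested probes there, 1.32% were lower and 3.26% higher, so counts this small are near those shares. DUSP1 read -1.64 and -2.44 in sh-S1 and -1.95 and -3.19 in sh-S2, the opposite direction on all 4 arrays. The epithelial markers given above fell in the same SKOV3 RNAs.

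Of 22 tested Hippo kinases, adaptors and upstream regulators, 4 were lower in SKOV3 and 0 higher, with a median of -0.12. Over all tested probes, 4.16% were called lower and 2.98% higher. They were NF2, the tumour suppressor merlin (-1.71 ± 0.14), the kinase MAP4K4 (-1.29 ± 0.35), the LIM protein AJUBA (-1.25 ± 0.37) and WWC1, the scaffold KIBRA (-1.14 ± 0.18). Other probes of NF2 and MAP4K4 gave ratios up to -0.43 and -0.11. In A2780s, 1 of 25 was lower, the angiomotin AMOTL1 at -0.59, where 1.32% of all tested probes were lower. Of the TEAD factors and VGLL cofactors, 0 of 5 were called in SKOV3, where 1 lay above and 1 below 0 at an unadjusted limma p under 0.05, and 0 of 8 passed the fold rule in A2780s.

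CCN receptors and co-receptors had 2 of 9 lower in SKOV3, the laminin receptor subunit ITGA6 (-1.98 ± 0.01) and ITGB1, the common beta1 integrin chain (-1.85 ± 0.09), and 0 higher. The share over all tested probes was 4.16% lower in SKOV3 and 1.32% lower in A2780s. In A2780s, 1 of 10 was lower, ITGB1 by another probe, with ratios of -0.97 and -0.39, while the probe read in SKOV3 gave -0.72 and -0.35. Of the 4 AXL ligands and related receptors, 0 were called in either line, with 2 above and 1 below 0 in SKOV3 at an unadjusted limma p under 0.05. By the same unadjusted threshold, 3 of the YAP and TAZ target genes, 4 of the Hippo genes and 2 of the CCN receptors lay above 0 in SKOV3, against 21, 8 and 4 below. The share of all tested probes under this threshold is not given here. It is large, since YAP1 A_23_P104762, with an unadjusted p of 0.0502 by limma, had an adjusted p of 0.122. These counts, and those of the TEAD and AXL lists, are therefore descriptions.

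**Figure D5:**
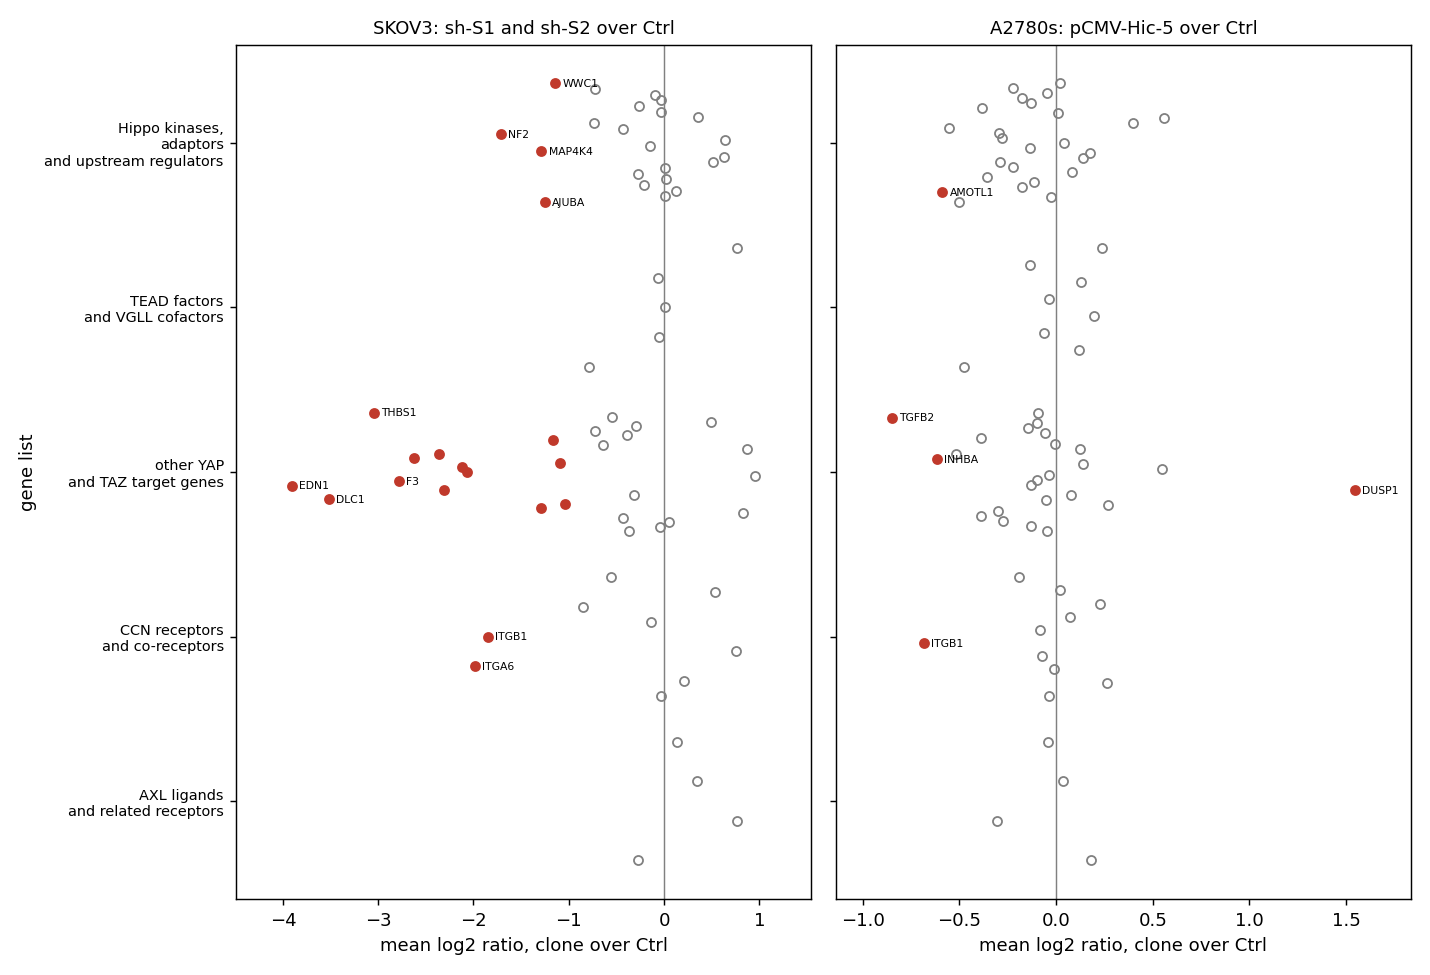
Mean log2 ratio of clone over Ctrl (x axis) of the genes of 5 lists (y axis, genes in alphabetical order within a list), with filled points for calls in SKOV3 (left) or genes past the fold rule in A2780s (right), up to 4 of them named a list. In the YAP and TAZ target list, 13 of 27 genes are filled at the left, and DUSP1 lies at 1.55 at the right.

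Among 12701 named genes that passed the filter in both lines, those nearest to CTGF over the 6 array ratios (Euclidean distance on the log2 scale) were ADAMTS1, a secreted metalloproteinase (0.55), COL17A1, a transmembrane collagen (0.71), and EFNA5, an ephrin (0.84). ADAMTS1 had a mean of -0.94 in SKOV3 and of -0.99 in pCMV-Hic-5. The nearest to CYR61 A_23_P46429 were B2M (1.06), the light chain of MHC class I, PXN (1.25), which encodes paxillin, and the linker histone gene HIST1H1C (1.26). PXN had ratios of -2.24, -0.97, -2.29 and -0.98 on the SKOV3 arrays and of -0.91 and -0.48 in A2780s. Each array counts on its own in this distance, so a shared gap between dye orientations also brings genes close. Like CYR61 A_23_P46429, these 3 genes read lower in either SKOV3 clone when it was in Cy5. The part of this dye pattern in the ranking was not tested.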

How the data were processed

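Two-colour Agilent 44K human arrays were hybridized with total RNA. The authors deposited scanner files from Feature Extraction with raw and processed intensity per spot and channel (version 10.7.3.1 per the file headers, 8.5.1.1 per the labels), and a series table of log10 ratios of Cy5 over Cy3, which equals the deposited log10 ratio column rounded to 3 digits and was used for that check alone. A log10 ratio was not turned on swapped arrays. Values of a scanner intensity carry no read depth, and the number of arrays limits the precision.

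Mean intensities were corrected with normexp (limma 3.58.1, R 4.3.3, offset 50). Spots flagged as background outliers were left out of the parameter fit, and 39 non-control spots with a local background over 1000 on 1 pCMV-Hic-5 array were dropped. Loess was run within arrays with control spots at weight 0, outlier-flagged spots were dropped and saturated spots kept, and ratios were turned to clone over Ctrl. A probe entered when Ctrl was well above background on every array of that line or a clone was on each of its 2 arrays, and when no array lacked a value. Dye swaps were averaged to 1 value a clone, and the mean of 2 clones was tested against 0 with lmFit and eBayes. This leaves out the spread of Ctrl. Nothing in the labels places the clones' RNAs in separate cultures of one clone, so p-values measure the spread between these samples. Channel levels were taken after Aquantile scaling. The scripts were tested on simulated data.

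The 10 members, the gene lists and the tests were chosen with earlier results of these data known. Named genes are all members, TGFB1I1, WISP3, up to 4 called genes with the same sign on every array per list, line and direction, and the 3 genes nearest to CTGF and CYR61. Alternatives were the processed signals, an offset of 10, normexp on all spots, median centring, no filter, a strict filter, each dye orientation alone, each clone left out, 1.5-fold on each array and the mean over probes of a gene. Promoters came from RefSeq (GRCh38.p14), and hg19 positions from the scanner files.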

Additional observations from a re-analysis of the deposited data

How the results depend on the processing

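In SKOV3, 6 member probes were called lower and 0 higher, and among the pathway lists 19 genes were lower and 0 higher. With the processed signals, 11 member probes were lower. Pathway genes called higher in SKOV3 numbered 4 with the processed signals, 1 with the offset of 10, 1 with median centring, 6 with the clone in Cy3 only and 1 to 2 with either clone left out, where a 2-fold rule without a test replaced the call. In pCMV-Hic-5, 5 member probes were lower and 0 higher by the fold rule, while the Cy5 array alone put 7 lower and 1, a WISP1 probe, higher. Pathway genes lower there, 4 as reported, numbered 2 with normexp on all spots, 2 with median centring, 2 with the mean over probes of a gene, 1 with 1.5-fold on each array, 12 on the Cy5 array alone and 1 on the Cy3 array alone. Those higher, 1 as reported, numbered 2 with median centring and 2 on either array alone. The cause of these shifts was not tested. Leaving out a clone gave 5 to 7 member probes lower, and the strict filter 4, as it removes NOV and WISP2. No called log2 ratio of a member changed sign under any of these settings. No paired analysis was possible because the replicate numbers only name the dye-swapped arrays of 1 RNA pair, in accession order. A block for slide or scan was not run, as each line lay on 1 slide.

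Over all probes, 1038 lower and 743 higher in SKOV3 became 2356 and 1971 with the processed signals, 1650 and 1182 with the offset of 10, 1578 and 826 with median centring, and 1372 and 1219 with the clone in Cy3 only. In A2780s, 403 lower and 994 higher became 693 and 1366 with the processed signals, 1516 and 1795 on the Cy5 array alone, 210 and 1019 on the Cy3 array alone, and 123 and 495 with 1.5-fold on each array. The dim Cy5 channel of the SKOV3 arrays, with 43.7% to 63.6% of spots well above background, limits NOV, WISP2 and ANKRD1.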
